A study of Homo sapiens with 6 samples.

Results

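Cytosolic heat shock proteins and their cochaperones were followed in a human myeloma cell line, NCI-H929, after knockdown of ribonucleotide reductase. The set held 10 genes, HSPA1A, HSPA8, HSPA4, HSPH1, HSP90AA1, HSP90AB1, HSPB1, DNAJA1, DNAJB1 and BAG3. They were represented by 24 of the 22277 probe sets, every one that the platform annotation assigns to any of them. Each of 3 groups had 2 oligonucleotide arrays. The siRRM1 group received small interfering RNA (siRNA) against RRM1, the large reductase subunit, and the siRRM2 group siRNA against RRM2, the small subunit. The scramble group received a non-targeting siRNA. All 3 groups were electroporated and total RNA was taken after 24 h, so a cell that was not electroporated is no part of these comparisons. Nothing in the labels ties replicates to separate cultures, so p-values measure the spread between these samples, which may be technical.

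Heat shock proteins are molecular chaperones that keep other proteins folded. HSP70 proteins bind exposed stretches of a client protein in a cycle of ATP hydrolysis. J-domain proteins deliver the client and start hydrolysis, and nucleotide exchange factors, among them the HSP110 and BAG proteins, release it. HSP90 proteins mature signalling proteins downstream of HSP70, and small heat shock proteins hold unfolded clients without ATP. Transcription of many of these genes is driven by heat shock factor 1 (HSF1), which binds inverted repeats of the triplet GAA. Myeloma cells secrete large amounts of antibody and are known for a high demand on protein folding.

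The promoters of 4 members are shown from RefSeq (GRCh38.p14), because HSPB1 and BAG3 were the members whose transcripts changed, HSPA1A was the member with the widest spread between arrays, and HSPA8 carries longer repeats. Each runs 5′ to 3′ over 250 bases before and 50 bases after the annotated start of the gene. Capitals mark inverted GAA repeats of 2 units, GAANNTTC or TTCNNGAA, or of 3 units, which is GAANNTTC followed directly by NNGAA, searched on both strands; a 3-unit repeat contains both 2-unit forms.
HSPB1 (chr7:76302423-76302722, plus strand): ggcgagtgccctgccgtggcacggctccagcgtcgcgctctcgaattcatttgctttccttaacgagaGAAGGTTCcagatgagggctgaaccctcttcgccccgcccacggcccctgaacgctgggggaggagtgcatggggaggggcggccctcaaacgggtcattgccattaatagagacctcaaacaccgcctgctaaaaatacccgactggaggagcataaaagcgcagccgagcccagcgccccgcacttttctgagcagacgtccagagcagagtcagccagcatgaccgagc
BAG3 (chr10:119651130-119651429, plus strand): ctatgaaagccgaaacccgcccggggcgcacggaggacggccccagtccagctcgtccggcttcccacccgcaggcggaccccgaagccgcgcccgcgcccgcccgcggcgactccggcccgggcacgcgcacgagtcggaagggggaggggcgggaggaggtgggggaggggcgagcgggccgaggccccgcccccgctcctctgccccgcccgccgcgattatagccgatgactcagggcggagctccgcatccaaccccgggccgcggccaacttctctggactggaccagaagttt
HSPA1A (chr6:31815293-31815592, plus strand): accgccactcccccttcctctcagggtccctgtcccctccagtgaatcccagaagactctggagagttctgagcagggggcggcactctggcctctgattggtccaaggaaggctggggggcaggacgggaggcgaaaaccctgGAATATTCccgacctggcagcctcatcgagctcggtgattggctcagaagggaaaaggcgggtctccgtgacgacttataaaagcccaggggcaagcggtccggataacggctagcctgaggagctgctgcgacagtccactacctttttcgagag
HSPA8 (chr11:123062087-123062386, minus strand): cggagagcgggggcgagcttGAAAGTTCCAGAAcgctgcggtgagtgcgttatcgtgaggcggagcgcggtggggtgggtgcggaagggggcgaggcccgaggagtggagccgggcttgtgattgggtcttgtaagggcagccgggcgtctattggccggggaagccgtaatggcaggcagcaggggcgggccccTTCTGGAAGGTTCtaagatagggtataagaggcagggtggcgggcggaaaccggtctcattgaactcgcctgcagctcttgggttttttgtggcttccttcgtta

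HSPB1 had 1 match of 2 units, starting 182 bases before the gene's start, and HSPA1A had 1, starting 106 bases before it. The BAG3 window had 0 matches, which says only that these letters are not in it. HSPA8 had 2 matches of 3 units, starting 230 and 55 bases before the start. The table listed 15 windows for the 10 genes, and 8 of them, from 7 genes, held a repeat of 2 units. HSPA4, HSPH1 and BAG3 were the genes without one. Over all 35116 windows of the table the share was 13.5%. The 3-unit repeat was found in 4 member windows, those of HSPA8, DNAJA1 and 1 each of HSP90AA1 and HSP90AB1, against 0.49% of all windows. A match is a description of the letters and not evidence of binding.

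The values are log2 signals as deposited, and array medians lay between 6.11 and 6.16. RRM1 fell in the siRRM1 cells (201477_s_at, log2 difference -2.63, SE 0.27, limma adjusted p = 0.00288). RRM2 fell in the siRRM2 cells (209773_s_at, log2 difference -2.70, SE 0.17, limma adjusted p = 0.00216). On its other probe set, 201890_at, the fall was smaller (log2 difference -1.79, SE 0.26, limma adjusted p = 0.0358). The siRRM2 arrays read 10.54 and 11.44 there. All 9 myeloma markers passed the filter on low signals. Their summed linear signal was 21981 and 20733 on the siRRM1 arrays, 26810 and 24252 on the siRRM2 arrays, and 26191 and 24653 on the scramble arrays, so it was lowest on both siRRM1 arrays. Of them FGFR3, a receptor kinase, fell in siRRM1 (log2 difference -0.54, limma adjusted p = 0.0248), and the median log2 difference of the 9 was -0.25. Of the other markers on the array, 1 of 5 T cell, 1 of 5 myeloid, 2 of 5 epithelial and 2 of 6 stromal markers passed it. The summed linear signal of the myeloid list was 188.0 and 287.6 on the siRRM1 arrays, 147.3 and 169.9 on the siRRM2 arrays, and 129.5 and 137.1 on the scramble arrays. Most of that difference was CSF1R, the myeloid marker above the filter, which rose in siRRM1 (mean log2 signal 7.20, against 5.70 in scramble, limma adjusted p = 0.0218), while CD14 averaged 4.32 in both and ITGAM 5.17 in siRRM1 and 5.16 in scramble. The part of these markers in the results on chaperones was not tested. A probe set was tested when its mean over the 6 arrays reached 5.44, the 40th percentile, which left 13366. Of the member probe sets 23 passed and 1 did not, 200799_at, whose signals lay between 3.58 and 3.69.

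The chaperone transcripts showed no general rise in either knockdown. In siRRM1 cells HSPB1, the small heat shock protein HSP27, rose 1.88-fold, BAG3 fell by 0.44 on the log2 scale, and the other 21 probe sets tested did not pass an adjusted p of 0.05. An unadjusted p under 0.05 was reached by 5 of 23, against 29.9% of all probe sets. In siRRM2 cells 0 of 23 passed by limma, with 2 at an unadjusted p under 0.05, against 18.8% of all. The background in siRRM1 was 12.1% of all probe sets called, 6.39% higher and 5.72% lower, and in siRRM2 it was 1.32%, with 1.11% higher and 0.202% lower. The member shares were thus close to or below those of the whole array. Leaving aside HSPB1, log2 differences from scramble ran from -0.44 to 0.23 in siRRM1 and from -0.44 to 0.12 in siRRM2. The upper end of the 95% interval lay under a 2-fold rise for 22 of 23 probe sets in each knockdown, HSPB1 being the exception. It lay under a 1.5-fold rise for 19 in siRRM1 and 20 in siRRM2. In bulk RNA, fewer cells of a kind and less RNA per cell cannot be told apart.

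**Figure D1:**
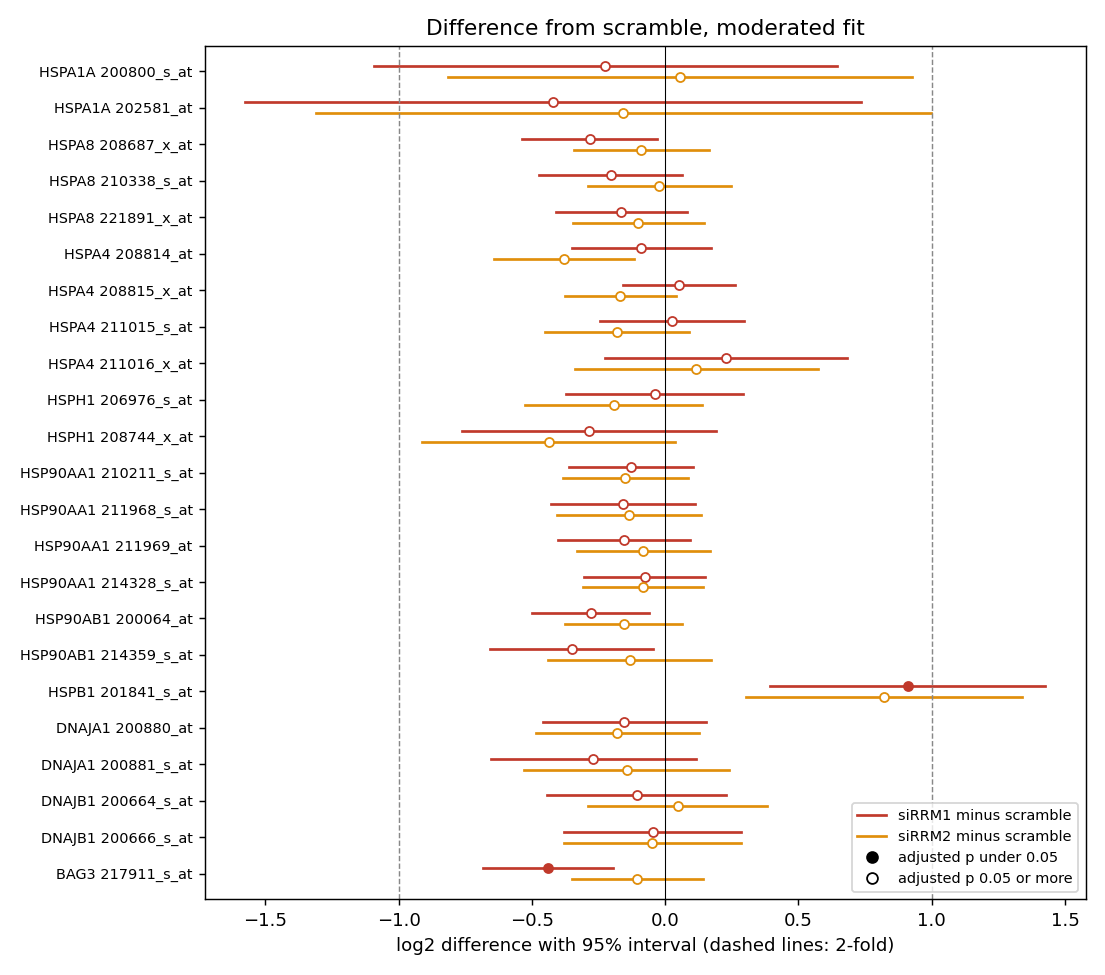
Log2 difference from scramble (x axis) with its 95% interval from the moderated fit for the 23 member probe sets tested, siRRM1 above siRRM2 in each row. Filled points passed an adjusted p of 0.05; dashed lines mark a 2-fold difference. HSPB1 lies to the right at 0.91 and 0.82, and the 2 HSPA1A probe sets have the widest intervals.

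The remaining differences leaned downward. In siRRM1, 19 of 23 log2 differences were below 0 (median -0.15), where 46.2% of all probe sets lay above 0 and their median was -0.02. In siRRM2 it was also 19 of 23 (median -0.13), where 47.7% of all probe sets lay above 0 and their median was -0.01. Both comparisons share the scramble arrays, and the 23 probe sets are repeated readings of 10 genes. All tested probe sets of a gene lay below 0 for 8 of the 10 genes in siRRM1, with 1 mixed. In siRRM2 this held for 6 genes, with 3 mixed. With 1 probe set per gene, taken from those that name 1 gene, 6 of 8 lay below 0 in each knockdown (medians -0.09 in siRRM1 and -0.12 in siRRM2). The signals did not overlap between siRRM1 and scramble for 10 probe sets, 9 of them lower and 1 higher, counting all 24, against 57.4% of all probe sets tested, 31.3% lower and 26.1% higher. For siRRM2 there were 11, 8 lower and 3 higher, against 54.7%, 28.8% lower and 25.9% higher. The 9 lower in siRRM1 include 200799_at, which lies below the filter.

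The downward lean rested partly on 2 arrays. SiRRM1 replicate 2 was the lowest of the 6 arrays for 15 of the 23 probe sets, against 31.1% of all probe sets, and scramble replicate 1 was the highest for 12, against 24.9%. Without siRRM1 replicate 2, 13 of 23 log2 differences in siRRM1 were below 0 (median -0.04). Without scramble replicate 1, 14 of 23 were below 0 in siRRM1 (median -0.04) and 14 of 23 in siRRM2 (median -0.02). The lean was larger without the other array of these groups. It was 21 of 23 in siRRM1 without siRRM1 replicate 1 (median -0.24). Without scramble replicate 2 it was 19 of 23 in siRRM1 (median -0.24) and 20 of 23 in siRRM2 (median -0.20). In siRRM2 it was 20 of 23 without siRRM2 replicate 1 and 16 of 23 without siRRM2 replicate 2. The difference between 3′ and 5′ control probe sets of ACTB, a measure of RNA quality, was 0.03 and 0.33 log2 units on the siRRM1 arrays, 0.05 and 0.05 on the siRRM2 arrays, and 0.34 and 0.15 on the scramble arrays. It was thus widest on scramble replicate 1 and siRRM1 replicate 2. For GAPDH the difference was -0.11 and -0.01 in siRRM1, -0.10 and -0.10 in siRRM2, and -0.02 and -0.09 in scramble. The RRM1 signal also differed between the siRRM1 arrays. It was 8.93 on replicate 1 and 7.99 on replicate 2 by 201477_s_at, and 7.03 and 5.90 by 201476_s_at. RRM1 was thus lowest on siRRM1 replicate 2. The parts of RNA quality and of the depth of knockdown in the chaperone values were not tested.

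**Figure D2:**
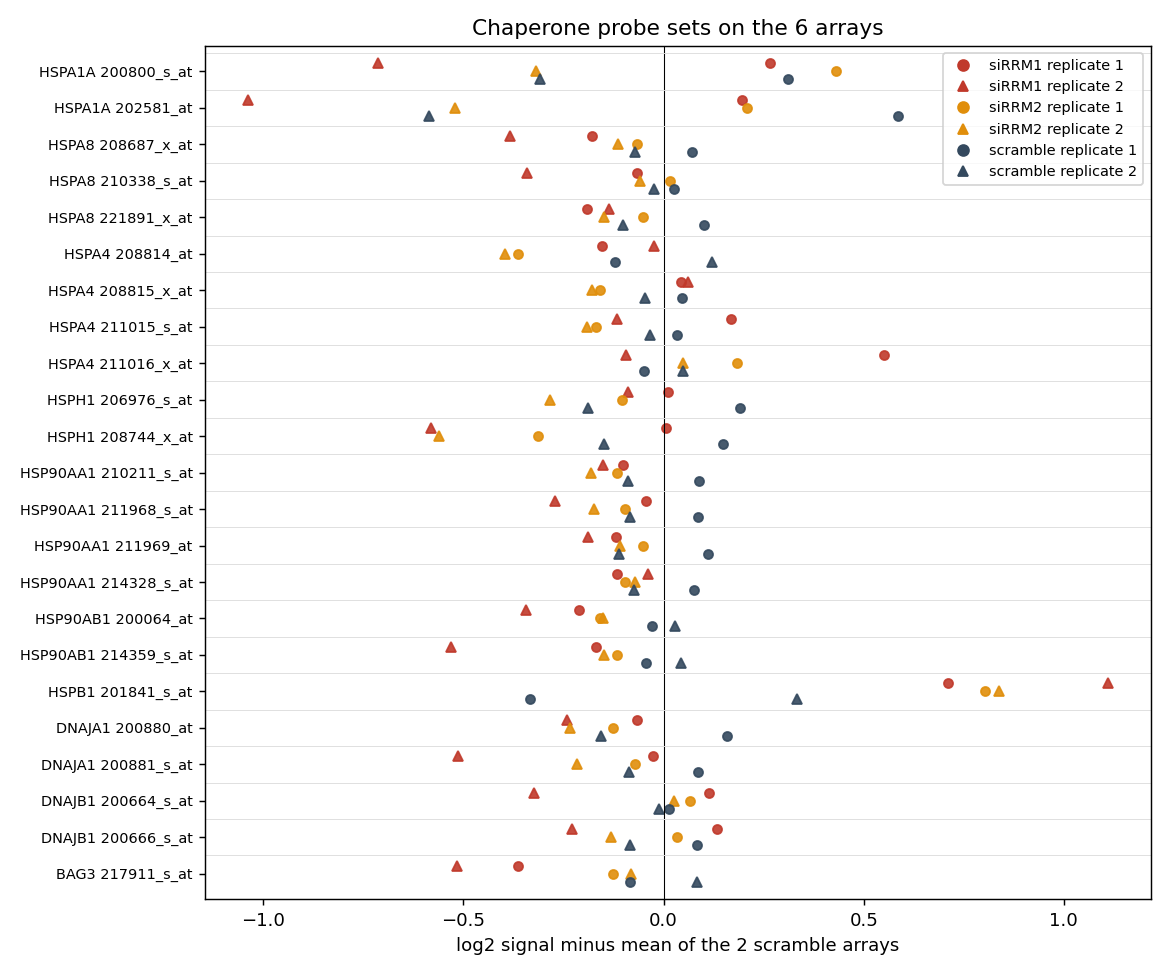
Signal of each member probe set on each array, as log2 signal minus the mean of the 2 scramble arrays (x axis), for the 23 probe sets tested. In each row the siRRM1 arrays are drawn above the siRRM2 and scramble arrays, circles are replicate 1 and triangles replicate 2. SiRRM1 replicate 2 is the leftmost point in 15 rows.

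Among the HSP70 chaperones, HSPA1A encodes the stress-inducible HSP70. Its probe sets also name HSPA1B, a near-identical copy, and 200800_s_at names HSPA1L as well, so these genes cannot be separated here. On 202581_at the signal was 7.89 and 6.66 in siRRM1, 7.90 and 7.17 in siRRM2, and 8.28 and 7.11 in scramble. The arrays of the groups overlapped, and each group spanned more than the distance between any 2 group means. The log2 difference from scramble was -0.42 in siRRM1 (95% interval -1.57 to 0.73, limma adjusted p = 0.612) and -0.16 in siRRM2 (-1.31 to 1.00, limma adjusted p = 0.903). On 200800_s_at the signal was 7.31 and 6.33 in siRRM1, 7.47 and 6.73 in siRRM2, and 7.35 and 6.73 in scramble. Its log2 differences were -0.22 in siRRM1 (limma adjusted p = 0.732) and 0.06 in siRRM2 (limma adjusted p = 0.954). The intervals of both HSPA1A probe sets held a 1.5-fold difference in either direction, which was therefore not detectable with these arrays.

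On both HSPA1A probe sets tested, the array labelled replicate 1 had the higher signal in each group. On 202581_at it was 2.35-fold above replicate 2 in siRRM1, 1.66-fold in siRRM2 and 2.25-fold in scramble. On 200800_s_at the ratios were 1.97, 1.68 and 1.54 in the same groups. The labels do not say whether a shared number marks a shared culture, day or batch. The same held for 14 of the 23 member probe sets, while replicate 2 was the higher array in all 3 groups for 1, HSPB1. Over all 13366 probe sets tested, replicate 1 was higher throughout for 19.1% and replicate 2 for 17.3%. Among the 14 were both probe sets each of HSPA1A, HSPH1, DNAJA1 and DNAJB1. On both HSPA1A probe sets tested, the spread between arrays of a group was thus larger than any difference between group means.

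**Figure D3:**
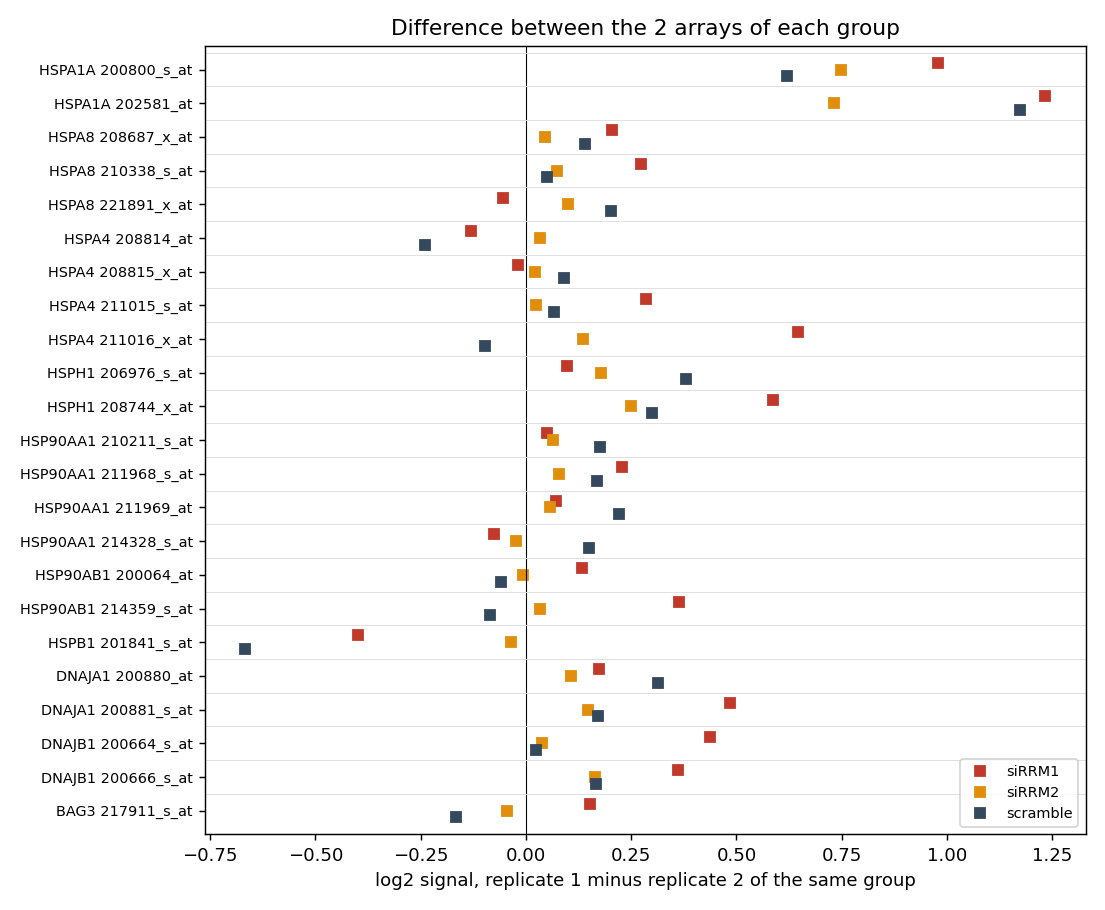
Log2 signal of replicate 1 minus replicate 2 within each group (x axis) for the 23 member probe sets tested; each row has 1 square per group. All 3 squares lie to the right of 0 for 14 probe sets, farthest for HSPA1A on 202581_at at 1.23 in siRRM1, 0.73 in siRRM2 and 1.17 in scramble, and to the left for HSPB1.

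HSPA8 encodes HSC70, the HSP70 protein made without stress. Its 3 probe sets also name SNORD14C and SNORD14D, small nucleolar RNA genes within the HSPA8 gene. On 208687_x_at the signal was 13.36 and 13.16 in siRRM1, 13.48 and 13.43 in siRRM2, and 13.61 and 13.47 in scramble. Both siRRM1 arrays lay below both scramble arrays, and siRRM2 overlapped scramble. The log2 difference was -0.28 in siRRM1 (SE 0.11, limma adjusted p = 0.132) and -0.09 in siRRM2 (SE 0.11, limma adjusted p = 0.703). The other 2 probe sets gave -0.20 and -0.16 in siRRM1 and -0.02 and -0.10 in siRRM2. All 3 had both siRRM1 arrays below scramble, and none passed the threshold. With a mean-variance trend in the fit, the value of 208687_x_at in siRRM1 passed (limma adjusted p = 0.034).

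The HSP110 proteins HSPA4 and HSPH1 exchange nucleotide on HSP70. Of the 4 HSPA4 probe sets, 3 were lower in siRRM2 than on every scramble array and 1 was higher. On 208814_at the signal was 6.89 and 7.03 in siRRM1, 6.69 and 6.65 in siRRM2, and 6.93 and 7.17 in scramble. The log2 difference was -0.38 in siRRM2 (SE 0.11, limma adjusted p = 0.143) and -0.09 in siRRM1 (SE 0.11, limma adjusted p = 0.641). On 208815_x_at the signal was 11.27 and 11.29 in siRRM1, 11.07 and 11.05 in siRRM2, and 11.27 and 11.18 in scramble. The siRRM2 arrays were the lowest on both of these probe sets. HSPA4 on 211016_x_at went the other way in siRRM2, with a log2 difference of 0.12 (limma adjusted p = 0.796). Probe sets with the suffix x can also bind related transcripts, and the 4 HSPA4 probe sets correlated with each other over the 6 arrays at r between -0.22 and 0.71.

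HSPH1, known as HSP105, had a log2 difference of -0.44 in siRRM2 on 208744_x_at (SE 0.20, limma adjusted p = 0.303). Its signal there was 9.83 and 9.25 in siRRM1, 9.52 and 9.27 in siRRM2, and 9.98 and 9.68 in scramble. SiRRM2 did not overlap scramble, and siRRM1 overlapped both. The siRRM1 difference was -0.29 (SE 0.20, limma adjusted p = 0.388). The second HSPH1 probe set, 206976_s_at, gave -0.04 in siRRM1 and -0.19 in siRRM2, with overlapping arrays in both.

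The HSP90 chaperones lay a little below scramble on all 6 probe sets in both knockdowns, none past the threshold. HSP90AB1 is the constitutive form. On 200064_at its signal was 12.43 and 12.30 in siRRM1, 12.48 and 12.49 in siRRM2, and 12.61 and 12.67 in scramble. Neither knockdown overlapped scramble, and siRRM1 also lay below siRRM2. The log2 difference was -0.28 in siRRM1 (SE 0.09, limma adjusted p = 0.0971) and -0.15 in siRRM2 (SE 0.09, limma adjusted p = 0.419). On 214359_s_at the signal was 11.75 and 11.38 in siRRM1, 11.80 and 11.76 in siRRM2, and 11.87 and 11.96 in scramble. The order of the groups was the same, and the log2 differences were -0.35 (limma adjusted p = 0.124) and -0.13 (limma adjusted p = 0.632). Leaving out siRRM1 replicate 1 moved the siRRM1 difference of 214359_s_at to -0.53 (limma adjusted p = 0.0288), past the threshold, and leaving out siRRM1 replicate 2 moved it to -0.17 (limma adjusted p = 0.415). With a mean-variance trend, 200064_at passed in siRRM1 (limma adjusted p = 0.0192).

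HSP90AA1 is the stress-inducible HSP90. On 211969_at its signal was 13.19 and 13.12 in siRRM1, 13.25 and 13.20 in siRRM2, and 13.42 and 13.20 in scramble. Scramble replicate 1 was the highest of the 6 arrays on each of the 4 HSP90AA1 probe sets. Log2 differences ran from -0.16 to -0.08 in siRRM1 and from -0.15 to -0.08 in siRRM2, with limma adjusted p of at least 0.374 and 0.466. Their 95% intervals lay between -0.43 and 0.15 in siRRM1 and between -0.40 and 0.17 in siRRM2.

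DNAJA1 and DNAJB1 are J-domain proteins of the HSP40 family. On 200881_s_at the DNAJA1 signal was 11.03 and 10.54 in siRRM1, 10.98 and 10.84 in siRRM2, and 11.14 and 10.97 in scramble. The arrays overlapped, with siRRM1 replicate 2 lowest. The log2 difference was -0.27 in siRRM1 (SE 0.16, limma adjusted p = 0.317) and -0.14 in siRRM2 (SE 0.16, limma adjusted p = 0.687). Without siRRM1 replicate 1 the siRRM1 difference was -0.51 (limma adjusted p = 0.0481), past the threshold, and without siRRM1 replicate 2 it was -0.03 (limma adjusted p = 0.932). The other DNAJA1 probe set gave -0.15 and -0.18. DNAJB1, a strongly heat-inducible partner of HSP70, was close to scramble in both knockdowns. On 200664_s_at its signal was 8.64 and 8.20 in siRRM1, 8.59 and 8.55 in siRRM2, and 8.54 and 8.51 in scramble. The log2 difference was -0.11 in siRRM1 (95% interval -0.44 to 0.23, limma adjusted p = 0.667) and 0.05 in siRRM2 (-0.29 to 0.38, limma adjusted p = 0.901). The second DNAJB1 probe set gave -0.05 in each.

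HSPB1 was the member that stood apart. It encodes HSP27, a small heat shock protein that holds unfolded proteins and binds actin filaments. Its single probe set, 201841_s_at, read 9.22 and 9.62 in siRRM1, 9.31 and 9.35 in siRRM2, and 8.17 and 8.84 in scramble. All 4 knockdown arrays lay above both scramble arrays. HSPB1 rose 1.88-fold in siRRM1 (log2 difference 0.91, SE 0.22, 95% interval 0.39 to 1.43, limma adjusted p = 0.0406). In siRRM2 the ratio was 1.77 (log2 difference 0.82, SE 0.22, 95% interval 0.30 to 1.34, limma adjusted p = 0.119), which missed the threshold. Between the knockdowns the log2 difference was 0.09 (95% interval -0.43 to 0.61, limma adjusted p = 0.948). The group means were thus highest in siRRM1, then siRRM2, then scramble, and the first pair did not differ beyond their spread. The scramble arrays were 0.67 log2 units apart. Without scramble replicate 2 the difference was larger, at 1.24 in siRRM1 and 1.15 in siRRM2. Without siRRM1 replicate 1 the siRRM1 difference was 1.11. Without scramble replicate 1 the siRRM1 difference was 0.58 (limma adjusted p = 0.142) and the siRRM2 difference 0.49 (limma adjusted p = 0.349). Without siRRM1 replicate 2 the siRRM1 difference was 0.71 (limma adjusted p = 0.189), and without either siRRM2 array it was 0.91 (limma adjusted p = 0.0719).

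BAG3, a BAG-domain exchange factor that links HSP70 to small heat shock proteins and to selective autophagy, fell in siRRM1. Its signal on 217911_s_at was 9.11 and 8.96 in siRRM1, 9.35 and 9.40 in siRRM2, and 9.40 and 9.56 in scramble. Both siRRM1 arrays lay below the other 4. The log2 difference was -0.44 in siRRM1 (SE 0.10, 95% interval -0.68 to -0.19, limma adjusted p = 0.0381), a ratio of 0.737. In siRRM2 it was -0.10 (SE 0.10, limma adjusted p = 0.641). Between siRRM1 and siRRM2 the log2 difference was -0.34 (SE 0.10, limma adjusted p = 0.434), so the knockdowns were not shown to differ. Only without siRRM1 replicate 1 did the call hold when 1 array was left out. It was lost without siRRM1 replicate 2 (log2 difference -0.36, limma adjusted p = 0.154), scramble replicate 1 (-0.52, limma adjusted p = 0.0829) or scramble replicate 2 (-0.36, limma adjusted p = 0.143). Without either siRRM2 array the difference was -0.44 (limma adjusted p = 0.0773).

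**Figure D4:**
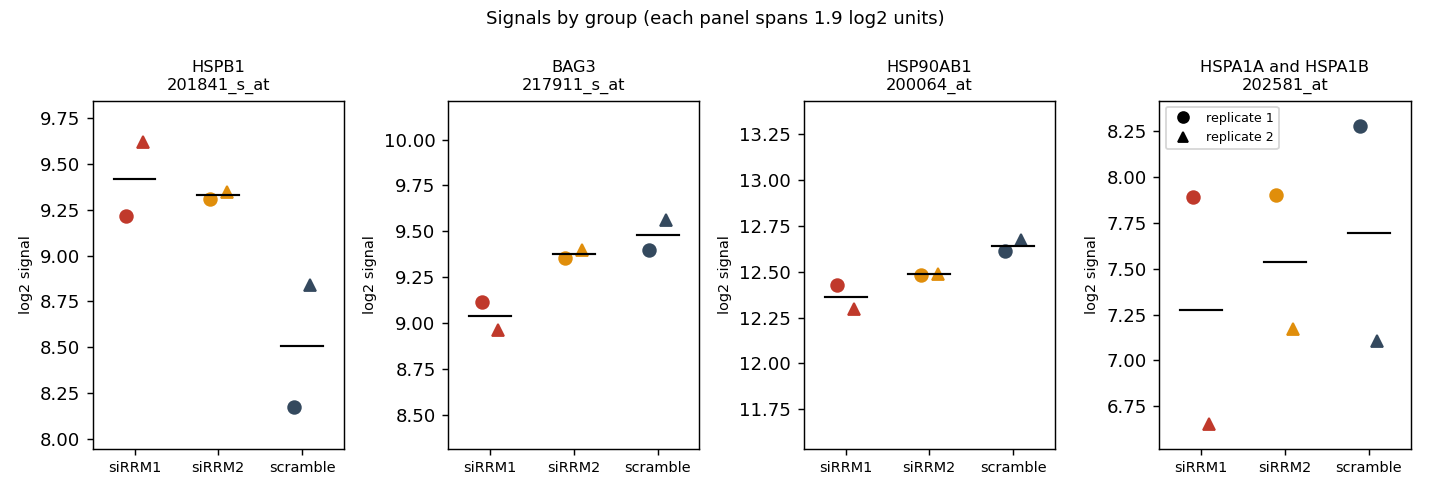
Log2 signal (y axis, each panel spanning the same length) by group for HSPB1, BAG3, HSP90AB1 and the probe set shared by HSPA1A and HSPA1B. Points are single arrays, circles replicate 1 and triangles replicate 2, and bars are means of 2 arrays. The knockdown arrays lie above scramble for HSPB1 and below it for HSP90AB1, only siRRM1 stands apart for BAG3, and HSPA1A separates by replicate number.

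Set directly against each other, siRRM1 and siRRM2 differed on 0 of 23 member probe sets by limma, with 3 at an unadjusted p under 0.05. These were BAG3, lower in siRRM1, and HSPA4 on 208814_at and 208815_x_at, higher in siRRM1 with log2 differences of 0.29 (limma adjusted p = 0.534) and 0.22 (limma adjusted p = 0.558). The background there was 0.0374% of all probe sets called, 0.0224% higher and 0.015% lower, and 8.63% had an unadjusted p under 0.05. The signals did not overlap for 11 of 24, 7 lower and 4 higher, against 38.5% of all probe sets tested, 21.2% lower and 17.3% higher. The 7 lower include 200799_at, which lies below the filter. All 4 HSPA4 and both HSPH1 probe sets were higher in siRRM1 than in siRRM2, at 0.11 to 0.29. All HSPA8, HSP90AB1 and HSPA1A probe sets tested were lower, at -0.06 to -0.28. The median over members was -0.02 and over all probe sets -0.01.

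Few genes of the wider chaperone network changed. Lists of 99 other genes, covering chaperones, cochaperones, heat shock factors and their further targets, each read from its brightest probe set that names it alone, had 76 tested genes. In siRRM1, 2 rose and 3 fell, against 6.39% and 5.72% of all probe sets. A limma fit of 1 probe set per gene called 652 higher and 582 lower there, of 7936 genes. In siRRM2 1 rose and 0 fell, against 1.11% and 0.202%, and against 159 and 41 of 7936 in that fit. Between the knockdowns 0 of the 76 genes passed by limma. Their median log2 differences were -0.12, -0.07 and -0.02. Those that rose were SQSTM1, the autophagy receptor p62, and IER5, an immediate early gene whose product acts on HSF1. Both were listed as further targets of HSF1 and are also known from other stress responses. SQSTM1 rose in siRRM1 (log2 difference 0.89, SE 0.09, limma adjusted p = 0.00288) and in siRRM2 (0.65, SE 0.09, limma adjusted p = 0.0347). IER5 rose in siRRM1 (0.95, SE 0.09, limma adjusted p = 0.00218) and had 0.46 in siRRM2 (limma adjusted p = 0.0597). Of the 12 tested genes of that list, the other 10 did not pass in either knockdown. Among them CHORDC1, an HSP90 cochaperone, had -0.51 in siRRM1 (limma adjusted p = 0.0703) and -0.42 in siRRM2 (limma adjusted p = 0.212).

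The genes that fell in siRRM1 were relatives of members. HSPA4L, another HSP110 protein, had a log2 difference of -0.49 (SE 0.11, limma adjusted p = 0.0350), the J-protein DNAJC16 of -0.45 (SE 0.11, limma adjusted p = 0.0383) and HSPA13, an HSP70 relative of the endoplasmic reticulum, of -0.48 (SE 0.10, limma adjusted p = 0.0255). In siRRM2 their values were -0.37 for HSPA4L (limma adjusted p = 0.153), -0.13 for DNAJC16 (limma adjusted p = 0.572) and -0.42 for HSPA13 (limma adjusted p = 0.0941). They made up 1 of 4 tested HSP70 and HSP110 relatives, 1 of 16 other J-proteins and 1 of 15 chaperones of the endoplasmic reticulum and mitochondria. None of 8 BAG proteins and other HSP70 cofactors, 12 HSP90 cochaperones, 12 subunits of the chaperonin TRiC and prefoldin, or 3 heat shock factors and regulators passed by limma in siRRM1. Without adjustment, 2, 2, 2 and 0 of them had a p under 0.05, against 29.9% of all probe sets. HSF1 itself had -0.03 in siRRM1 (limma adjusted p = 0.927) and 0.05 in siRRM2 (limma adjusted p = 0.884). Of the other small heat shock proteins 1 of 7 on the array was above the filter, HSPB2, with 0.15 in siRRM1 (limma adjusted p = 0.555).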

How the data were processed

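The authors deposited log2 signals for 22277 probe sets on 6 arrays, 1 column per sample. Their summary and normalization method was not stated in the labels or header, and the base was read from the range of the values (maxima of 14.39 to 14.42). Nothing further was scaled. Per the labels' protocols, biotinylated cRNA was made from total RNA. Gene names came from the platform's annotation table, where 18 member probe sets name 1 gene and 6 name several, and symbols were refreshed through RefSeq (GRCh38.p14).

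Probe sets whose mean reached the 40th percentile were fitted with limma 3.58.1 in R 4.3.3 (lmFit, eBayes; 3 residual and 4.30 prior degrees of freedom) over all 6 arrays. Groups follow the sample titles. The contrasts were siRRM1 minus scramble, siRRM2 minus scramble and siRRM1 minus siRRM2. P-values are two-sided, Benjamini-Hochberg adjusted over all probe sets of a contrast and called under 0.05. Data for siRRM1 minus scramble were simulated with independent noise over 13366 probe sets. There 79 of 100 changes of 1 log2 unit and 98 of 100 of 2 units were recovered, with 8 false calls. Smaller changes, the size of all member differences, and a shared deviation of same-numbered arrays were not simulated. The recovery of such changes is therefore not known from it. Every member probe set is named; of each list, up to 3 risen and 3 fallen genes, or the 2 with the smallest p, could be named. The members and lists were chosen with earlier results of these data known. Alternatives were the filter, 1 probe set per gene, the variance model, scaling, the arrays fitted, a block and leaving out arrays. A further array control is not reported here. No depth applies to arrays; 2 per group limit the precision.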

Additional observations from a re-analysis of the deposited data

How the results depend on the processing

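Of 987 member values recomputed under alternatives, 971 kept their side of the threshold, 0 reversed past it, 11 lost a call and 5 gained one. Only HSPB1 and BAG3 in siRRM1 had a call to lose, with 15 recomputed values each, and all 11 losses were theirs. All other values started without a call, so they could only stay or gain one. Fitting only the 2 groups compared left 0 member calls in siRRM1 against scramble and 926 of all probe sets, with fewer degrees of freedom. Leaving out either siRRM2 array gave this same siRRM1 fit, so the losses under these settings stand for 1 fit. A mean-variance trend gave 4 member calls there, 352 probe sets in siRRM2 against scramble and 16 between the knockdowns. The last count was 3 with the filter at the 60th percentile and 13 with 1 probe set per gene. Centring each array on its median gave 746 higher and 1065 lower in siRRM1, against 854 and 765 as deposited. With 1 array left out, member calls ranged from 0 to 4 in siRRM1 and were 0 in siRRM2 and between the knockdowns. Counts over all probe sets ranged from 386 to 2026, from 6 to 140 and from 2 to 5, against 1619, 176 and 5 with all arrays. The lowest were without siRRM1 replicate 2, siRRM2 replicate 2 and siRRM2 replicate 1. The cause of these shifts was not tested. Same-numbered arrays deviated together (r of 0.21, 0.35 and 0.36 across probe sets), but the labels do not say what the number marks. With the replicate block, counts over all probe sets were 2731, 704 and 101, and HSPB1 also passed in siRRM2, the 1 member call there (log2 difference 0.82, limma adjusted p = 0.0204).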

Other observations

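Genes whose signals followed the members most closely over the 6 arrays were read from 7928 candidate genes as a description, since arrays of a group share a treatment and 6 points allow high values by chance. The mean of the 10 members' centred signals was matched best by AGO3, a protein of RNA interference (Pearson r = 0.998), NQO2, a quinone reductase (0.991), RBM7, an RNA-binding protein (0.987), ETF1, the translation release factor (0.981), and ATP5MC3, a subunit of the mitochondrial ATP synthase (0.981). The centred signals were not scaled, so members with a wide range weigh more in that mean. The widest was HSPA1A on 202581_at, at 1.62 log2 units, and NQO2 and ATP5MC3 were also among the 5 best matches of HSPA1A alone. HSPB1 was matched by ARHGEF6 (0.994), EMP3 (0.988) and CD300A (0.987). BAG3 was matched by TMBIM4 (0.993), IDH1 (0.992) and NSD2 (0.991), the last a gene of the translocation carried by this cell line. None of these was a listed chaperone.

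Read from the brightest probe set of each, the members did not all move together, but some values depended on the probe set. HSP90AA1 and DNAJA1 correlated at r = 0.19 on 214328_s_at and 200881_s_at, the brightest. On 210211_s_at and 200880_at they correlated at 0.96. With 1 probe set per member, HSP90AB1 and BAG3 correlated at r = 0.93 over the 6 arrays, HSPA1A and DNAJA1 at 0.88, and HSPA8 and HSP90AA1 at 0.84. On these probe sets HSPB1 correlated negatively with each of the other 9, from -0.81 with HSPA8 to -0.27 with HSPA4. Over all member probe sets its values ran from -0.94 with HSP90AA1 on 210211_s_at to 0.18 with HSPA4 on 211016_x_at.

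The share with the higher signal on replicate 1 in all 3 groups was 60.9% of the member probe sets tested, 26.3% of the 76 tested genes of the chaperone and heat shock factor lists and 19.1% of all probe sets. What sets the replicate numbers apart was not tested.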
